A study of Mus musculus with 27 samples.

Results

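Levels of 9 mouse genes of amino acid breakdown were followed across fresh hepatocytes, hepatocyte organoids (HepOrgs) and periportal assembloids. They encode enzymes that break down tryptophan (Tdo2, Kmo, Kynu and Haao), tyrosine (Tat, Hpd, Hgd and Fah) and histidine (Hal), and they were taken by name, as 9 of the 21850 genes of the deposited bulk RNA-seq table, over 9 conditions of 3 libraries each (27 libraries). All cells were primary mouse liver cells of the C57BL/6 background. Freshly isolated hepatocytes were the starting material, and HepOrgs were grown from hepatocytes in HM-Wnt, a medium with EGF, HGF, FGF7, FGF10, R-spondin, a GSK3 inhibitor, a TGF-beta receptor inhibitor, 10 mM nicotinamide, a ROCK inhibitor and 30% Wnt-conditioned medium. At passage 2 they were collected after 1 or 2 weeks (7 or 14 days) in HM-Wnt or in MM. MM keeps the 30% Wnt-conditioned medium and the ROCK inhibitor. It contains no nicotinamide, no GSK3 inhibitor, no TGF-beta receptor inhibitor and none of these growth factors. Assembloids joined 10 HepOrgs, 1000 cholangiocytes and either 250 portal mesenchymal cells (homeostasis) or 2500 (fibrosis-like), and were kept in MM for 1 or 2.5 weeks (7 or 18 days). The labels give every library as wild type except replicate 3 of the fresh hepatocytes, whose genotype field reads MDR2-het while its title reads WT. The paper states that assembloids generally joined wild-type HepOrgs with cholangiocytes of nuclear tdTomato mice and mesenchyme of PDGFRα reporter mice. Whether same-condition libraries came from separate mice or cultures is not given in the sources used here, so p values measure the spread between these libraries, which may be technical.

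In the body, the breakdown of aromatic amino acids and histidine takes place largely in hepatocytes. Tryptophan is opened by TDO2 to N-formylkynurenine and passes through kynurenine, 3-hydroxykynurenine (made by KMO) and 3-hydroxyanthranilate (made by KYNU) to the precursor of quinolinate (made by HAAO), which can be turned into NAD. Tyrosine is transaminated by TAT, after which HPD, HGD and, as the last step, FAH yield fumarate and acetoacetate. Histidine loses its ammonia through HAL, which gives urocanate. Loss of HPD, HGD or FAH underlies known inborn errors of tyrosine degradation, and Tdo2 and Tat are textbook glucocorticoid-induced liver genes.

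Total counts per library ranged from 30289364 to 65348596, with a median of 43727965. Levels are given as normalised CPM, counts brought to a common library size with TMM scaling over the 27 libraries, a unit that does not correct for transcript length. A list of 10 hepatocyte markers (Alb, Ttr, Apoa1 and others) was counted in all 9 conditions, with sums of 69968 to 130959 CPM in fresh hepatocytes and 23198 to 70831 CPM in the 12 HepOrg libraries, and mesenchyme and cholangiocyte marker sums in HepOrgs stayed at or below 234 and 197 CPM. Fresh hepatocytes also held endothelial marker sums of 40.6 to 195 CPM, against at most 2.64 CPM in any culture, and immune marker sums of 37.3 to 379 CPM, whose part in the fresh levels was not tested. Among assembloids, homeostasis replicate 2 at 1 week stood apart, with a hepatocyte marker sum of 2834 CPM beside 100819 and 41089.5 CPM in its fellow libraries and a cholangiocyte sum of 5789 CPM beside 73.3 and 514 CPM. It had counts for 8465 genes at a total of 35279254 counts, while its fellow libraries had counts for 14457 and 14452 genes. Whether RNA was lost in making that library was not tested. For results that rest on that library, the calls of members are given with and without it.

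Of the 9 members, 8 had counts in the table, and Hpd was at 0 in all 27 libraries, fresh hepatocytes included. Hpd (ENSMUSG00000029445, GRCm39 chromosome 5, 123309870 to 123320817, minus strand) lies wholly within the span of Psmd9 on the opposite strand, and 100% of the bases of its canonical exons are covered by that span. Of 858 genes placed wholly inside another listed gene, 82.98% were at 0 in every library, against 12.04% of the 20847 other genes. The 0 of Hpd is therefore given as listed and is not read as a level, and no fold is given for it. Haao (chromosome 17, 84138583 to 84155392, minus strand) shares 78.9% of its exon bases with the span of Mta3, and Tdo2 (chromosome 3, 81864248 to 81883509, minus strand) shares 55.98% with the span of Ctso, both on the other strand. The strand setting of the counting is not given in the sources used here, so the levels of these 2 members may miss or include reads of that overlap. Kmo (chromosome 1, 175447947 to 175489683, plus strand) touches the span of Fh1 with 0 exon bases. Kynu (chromosome 2, 43445309 to 43572734, plus strand), Hgd (chromosome 16, 37400515 to 37452388, plus strand), Fah (chromosome 7, 84232788 to 84255930, minus strand), Tat (chromosome 8, 110717063 to 110726435, plus strand) and Hal (chromosome 10, 93324629 to 93355166, plus strand) overlap no other gene of the table.

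Promoters are shown for the members at both ends of the range in culture, Tdo2 and Hal, whose levels in HM-Wnt HepOrgs were the smallest share of fresh hepatocytes, and Hgd and Fah, whose share there was the largest. The sequences are the 160 bases before the transcription start, 5′ to 3′ on the gene's strand, from the RefSeq table of build GRCm38.p6, which held 8 of the 9 members (Kynu was not matched). Capitals mark matches, on either strand, to the letters TATAAA (a core promoter box), CCAAT (an NF-Y type box), TTGCNNAA (C/EBP type, where N is any base) or GTTAAT (part of an HNF1 site), and no match overlapped another.
Tdo2, chr3:81975729-81975888, minus strand: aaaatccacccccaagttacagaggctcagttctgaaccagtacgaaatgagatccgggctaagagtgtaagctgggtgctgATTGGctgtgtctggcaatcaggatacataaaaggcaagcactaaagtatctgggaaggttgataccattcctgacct
Hal, chr10:93488608-93488767, plus strand: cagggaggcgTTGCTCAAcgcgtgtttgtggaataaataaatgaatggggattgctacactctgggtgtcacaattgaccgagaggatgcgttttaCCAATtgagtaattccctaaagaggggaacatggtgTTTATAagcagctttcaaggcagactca
Hgd, chr16:37579993-37580152, plus strand: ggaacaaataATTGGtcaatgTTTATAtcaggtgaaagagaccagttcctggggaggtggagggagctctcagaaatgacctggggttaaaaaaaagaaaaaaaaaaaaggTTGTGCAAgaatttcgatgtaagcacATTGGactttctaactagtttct
Fah, chr7:84605943-84606102, minus strand: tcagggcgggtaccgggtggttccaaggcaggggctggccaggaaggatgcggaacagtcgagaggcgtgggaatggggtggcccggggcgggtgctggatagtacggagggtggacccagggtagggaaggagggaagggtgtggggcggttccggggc

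Within the 250 bases before the start, the letters TATAAA were found in 3 of the 8 matched members and in 12.4% of 32851 promoters of the table, the letters CCAAT in 4 members (Tdo2, Tat, Hgd and Hal) and 33.8%, the C/EBP-type letters in 2 members (Hgd and Hal) and 9.56%, and the HNF1 letters in 1 member (Haao) and 6.43%. Hal and Hgd, at the opposite ends of the range in culture, both held the first 3 kinds of letters, and Fah held none of the 4. In Hal the core promoter box lay 28 bases before the start and the C/EBP-type letters 150, whereas in Hgd they lay 139 and 49 bases before it. A match is a run of letters and not a measured site.

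Fresh hepatocytes held the highest level of all 8 counted members, and no library of any other condition reached the lowest fresh library. The same layout held for 10.4% of the 14655 genes tested over all libraries. Per kilobase of canonical transcript, and among the 6 members without a shared exon base, Tat stood at 923 ± 364 CPM per kb (SD, n = 3), Fah at 727 ± 43.4, Hgd at 421 ± 30.0, Kmo at 186 ± 35.2, Hal at 94.7 ± 36.9 and Kynu at 50.6 ± 9.24. Tat, the rate-limiting transaminase, thus had the highest level per length and also the widest absolute spread among these 6, and its libraries overlapped those of Fah.

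**Figure D1:**
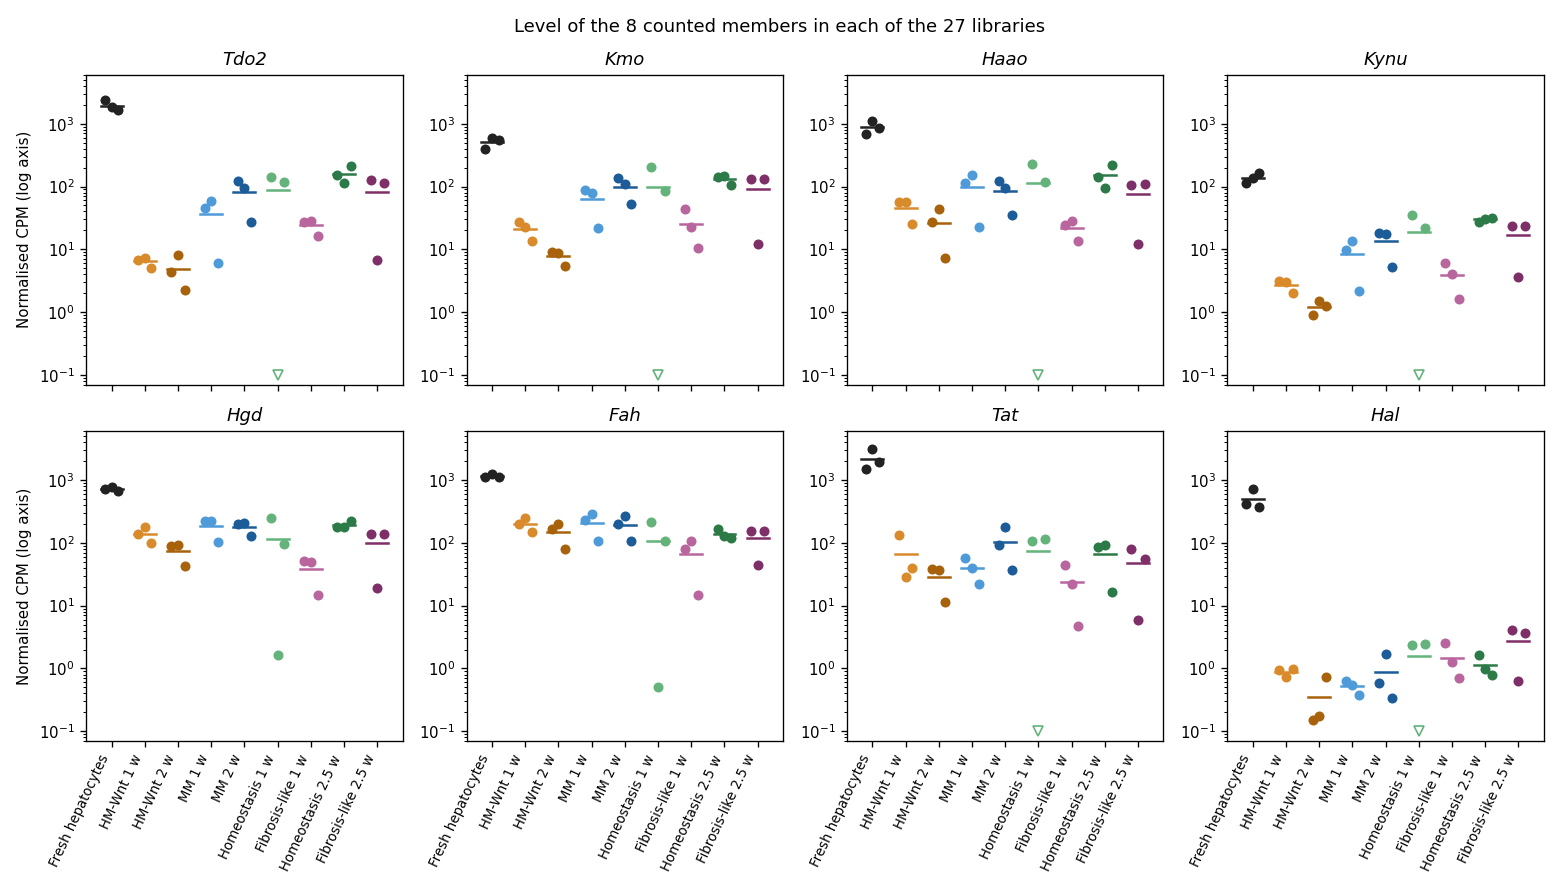
Normalised CPM (log axis) of the 8 counted members in each of the 27 libraries, by condition. Each point is 1 library, each bar the mean of 3, and open triangles at the foot of a panel stand for 0 counts. The fresh libraries lie above all others in each panel, and homeostasis replicate 2 at 1 week lies lowest.

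The first comparison asked how far HepOrgs keep the enzyme programme of the hepatocytes they were grown from. All 8 counted members were lower in HepOrgs than in fresh hepatocytes in either medium at either time, from 3.91-fold for Hgd in MM at 1 week to 1290.5-fold for Hal in HM-Wnt at 2 weeks, and all 8 passed the threshold in each comparison (edgeR quasi-likelihood test, Benjamini-Hochberg adjusted p under 0.05 over all genes tested). Of the 13405 genes tested, 24.8% passed in the lower direction for HM-Wnt at 1 week, 25.7% for HM-Wnt at 2 weeks, 21.3% for MM at 1 week and 20.0% for MM at 2 weeks. The median log2 fold change of the members was -4.84, -6.17, -3.61 and -3.34 in that order, beside 0.02, 0.03, 0.00 and -0.01 over all genes. These 4 comparisons share the same 3 fresh libraries. In bulk RNA, fewer hepatocytes and less of an mRNA per hepatocyte cannot be told apart, and the hepatocyte marker sums given above were below the lowest fresh library in 10 of 12 HepOrg libraries.

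Of the tryptophan enzymes, Tdo2, the entry step, had the smallest share of its fresh level in each HepOrg condition. Its level was 2352, 1825 and 1643 CPM in fresh hepatocytes, 6.85, 7.23 and 5.12 in HM-Wnt at 1 week, and 4.39, 8.10 and 2.21 in HM-Wnt at 2 weeks. In MM it was 44.8, 59.6 and 6.06 at 1 week and 121, 96.1 and 27.4 at 2 weeks. Every HepOrg library was thus below the fresh range, and MM replicate 3 at 1 week sat within the HM-Wnt range. The HM-Wnt mean was 0.330% of the fresh mean at 1 week and 0.252% at 2 weeks, and the MM mean 1.90% and 4.21%. The log2 fold change against fresh hepatocytes was -8.28 (SE 0.94, adjusted p = 1.4e-05) in HM-Wnt at 1 week and -4.54 (SE 0.79, adjusted p = 0.00058) in MM at 2 weeks.

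Kmo, which hydroxylates kynurenine at the outer mitochondrial membrane, read 399, 582 and 542 CPM in fresh hepatocytes, 27.6, 22.5 and 13.7 in HM-Wnt at 1 week and 8.97, 8.85 and 5.50 at 2 weeks. In MM the libraries held 87.7, 80.2 and 21.5 CPM at 1 week and 136, 110.1 and 52.7 at 2 weeks. The HM-Wnt libraries of both times did not overlap each other, in a comparison in which 0% of genes passed. The share of all genes whose libraries lay apart in this way is not given here. MM replicate 3 at 1 week again sat within the HM-Wnt range of that time. Against fresh hepatocytes, the log2 fold change of Kmo was -6.06 (SE 0.59, adjusted p = 3.5e-06) in HM-Wnt at 2 weeks and -2.33 (SE 0.50, adjusted p = 0.0023) in MM at 2 weeks.

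Kynu, which cleaves the side chain of hydroxykynurenine, had the lowest level per length of the 6 members compared above and followed the same order. The fresh libraries held 115, 135 and 165 CPM, HM-Wnt libraries 3.14, 3.05 and 2.03 at 1 week and 0.907, 1.51 and 1.25 at 2 weeks, and MM libraries 9.77, 13.6 and 2.21 at 1 week and 18.3, 17.5 and 5.26 at 2 weeks. The HM-Wnt values of Kynu rest on 36 to 108 counts per library. Its log2 fold change was -6.81 (SE 0.69, adjusted p = 5.1e-06) in HM-Wnt at 2 weeks and -3.31 (SE 0.58, adjusted p = 0.00062) in MM at 2 weeks. In HM-Wnt at 2 weeks the SE was 0.59 for Kmo, 0.82 for Haao and 0.95 for Tdo2.

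Haao, the dioxygenase that opens the ring of 3-hydroxyanthranilate, had a larger share of its fresh level than Tdo2 in each HepOrg condition. It stood at 698, 1105 and 855 CPM in fresh hepatocytes, 56.8, 55.7 and 25.6 in HM-Wnt at 1 week and 26.9, 43.6 and 7.37 at 2 weeks. In MM the values were 113, 155 and 22.6 at 1 week and 124, 95.2 and 35.1 at 2 weeks, so that MM replicate 3 lay below the HM-Wnt range at 1 week and inside it at 2 weeks. Means were 5.20% and 2.93% of fresh in HM-Wnt and 10.9% and 9.55% in MM, and the log2 fold changes at 2 weeks were -5.13 (SE 0.82, adjusted p = 0.00019) and -3.36 (SE 0.75, adjusted p = 0.0032).

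The late tyrosine enzymes had the largest share of their fresh level in HM-Wnt HepOrgs among the 8. Hgd, homogentisate dioxygenase, read 706, 775 and 675 CPM in fresh hepatocytes, 138, 176 and 98.3 in HM-Wnt at 1 week, 88.8, 92.5 and 42.2 in HM-Wnt at 2 weeks, 225, 226 and 103 in MM at 1 week and 202, 210.0 and 130.3 in MM at 2 weeks. Fah, which splits fumarylacetoacetate, read 1118, 1231 and 1106 CPM in fresh hepatocytes, 200.2, 245 and 147 in HM-Wnt at 1 week, 163, 200.4 and 80.4 at 2 weeks, and 231, 289 and 105 in MM at 1 week and 202, 271 and 105 at 2 weeks. Both genes thus lay between 10.4% and 25.7% of their fresh mean in all 4 HepOrg conditions, and the Fah libraries of the 2 media overlapped at both times. Their log2 fold changes against fresh hepatocytes ranged from -3.31 (Hgd, HM-Wnt at 2 weeks, SE 0.39, adjusted p = 1.6e-05) to -1.97 (Hgd, MM at 1 week, SE 0.37, adjusted p = 0.00093).

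Tat, the first enzyme of tyrosine breakdown, had a smaller share of its fresh level than Hgd and Fah, the enzymes after it. The fresh libraries held 1491, 3164 and 1938 CPM, and the HepOrg libraries 133, 28.8 and 40.1 in HM-Wnt at 1 week, 38.5, 37 and 11.6 at 2 weeks, 58.0, 39.5 and 22.0 in MM at 1 week and 92.0, 176 and 37 at 2 weeks. Its HepOrg levels overlapped across media and times, with HM-Wnt replicate 1 at 1 week and MM replicate 2 at 2 weeks the 2 highest. The means of 1.32% to 4.62% of fresh corresponded to log2 fold changes of -6.28 (SE 0.84, adjusted p = 4.7e-05) in HM-Wnt and -4.41 (SE 0.77, adjusted p = 0.00061) in MM, both at 2 weeks.

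Hal, the only member of the histidine route, had the smallest share of its fresh level, at or below 0.176% in each HepOrg condition. Fresh hepatocytes held 409, 729 and 373 CPM, whereas HM-Wnt HepOrgs held 0.958, 0.731 and 0.972 at 1 week and 0.151, 0.176 and 0.737 at 2 weeks, and MM HepOrgs 0.641, 0.539 and 0.385 at 1 week and 0.596, 1.72 and 0.339 at 2 weeks. These HepOrg values rest on 6 to 76 counts per library, beside 12268 to 16666 in fresh hepatocytes. No comparison among the HepOrg conditions called Hal. The log2 fold change was -9.10 (SE 0.70, adjusted p = 6.0e-07) in HM-Wnt at 1 week, -10.33 (SE 0.74, adjusted p = 2.8e-07) in HM-Wnt at 2 weeks, -9.79 (SE 0.72, adjusted p = 5.3e-07) in MM at 1 week and -9.03 (SE 0.69, adjusted p = 9.2e-07) in MM at 2 weeks.

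**Figure D2:**
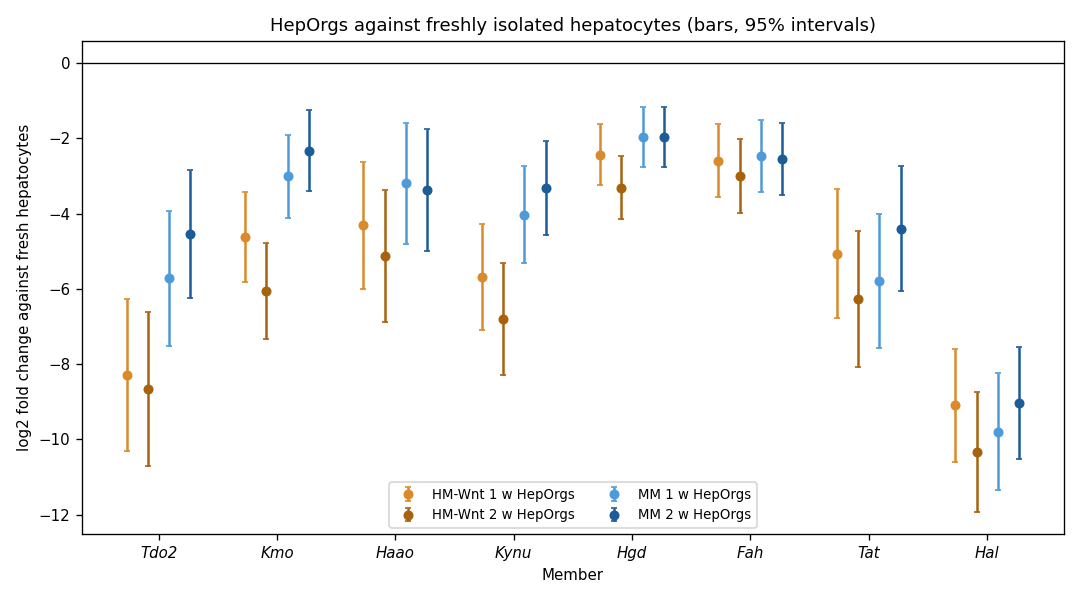
Log2 fold change of the 8 counted members in HepOrgs against fresh hepatocytes, by medium and time, with bars for the 95% interval. All intervals lie below 0, with Hgd and Fah nearest to it and Hal and HM-Wnt Tdo2 farthest.

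The count of 8 of 8 did not depend on any single library, including fresh replicate 3 with its MDR2-het field. When the spread was estimated over all 27 libraries in 1 fit, it stayed at 8 for HM-Wnt at 2 weeks and fell to 6 for HM-Wnt at 1 week, 4 for MM at 1 week and 2 for MM at 2 weeks. In HM-Wnt at 1 week Hgd (adjusted p = 0.073) and Fah (adjusted p = 0.082) no longer passed.

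The second comparison asked what the change from HM-Wnt to MM did to these enzymes. At 2 weeks, 4 of the 8 members were higher in MM: Tdo2, Kmo, Kynu and Hgd, against 6.84% of the 12989 genes tested. Tdo2 was 17.4-fold higher (log2 fold change 4.12, SE 0.82, adjusted p = 0.011), Kmo 13.4-fold (3.74, SE 0.56, adjusted p = 0.0027), Kynu 11.4-fold (3.51, SE 0.65, adjusted p = 0.0071) and Hgd 2.54-fold (1.34, SE 0.38, adjusted p = 0.044). In 1 fit of all 27 libraries 0 of the 4 passed, with adjusted p of 0.36 for Tdo2 and Kynu, 0.37 for Kmo and 0.85 for Hgd. For these 4 genes every MM library, listed above, was higher than every HM-Wnt library, as was the case for 16.5% of the genes tested. The remaining members also had positive log2 fold changes but did not pass, with Tat at 1.88 (adjusted p = 0.11), Haao at 1.77 (adjusted p = 0.15), Hal at 1.30 (adjusted p = 0.22) and Fah at 0.45 (adjusted p = 0.56), and their libraries overlapped. The members' median was 1.83, beside -0.02 over all genes.

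HepOrg libraries with the same replicate number deviated together across the 4 conditions, so the comparison was also made with the replicate number as a block. Under the block 6 of 8 members were higher in MM at 2 weeks, against 11.0% of genes: Haao (log2 fold change 1.91, SE 0.31, adjusted p = 0.0025) and Tat (1.89, SE 0.48, adjusted p = 0.021) joined the 4 above, and Kmo had an adjusted p of 4.4e-05. Hgd passed without the block only narrowly, and leaving out any 1 library but MM replicate 3 ended its call.

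At 1 week in MM none of the 8 members passed (edgeR quasi-likelihood test), although 3 were at an unadjusted p under 0.05, and 2.98% of all genes passed in either direction. Tdo2 had a log2 fold change of 2.55 (SE 0.77, adjusted p = 0.090), Kynu of 1.65 (SE 0.60, adjusted p = 0.14), Kmo of 1.60 (SE 0.51, adjusted p = 0.10) and Haao of 1.11 (adjusted p = 0.39). With the block, Kmo (1.44, SE 0.24, adjusted p = 0.0087) and Tdo2 (2.04, SE 0.48, adjusted p = 0.029) passed, against 5.62% of genes in the higher direction, and DESeq2 called Kmo, Kynu and Tdo2. MM replicate 3 at 1 week was the lowest of its group for 8 of 8 members and for 8 of the 10 hepatocyte markers, and without it the same 3 genes passed in edgeR. The hepatocyte marker sum of that library was 23198 CPM, against 70630.5 and 60868 CPM in the other MM libraries of that time.

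The difference in the effect of the medium between 2 weeks and 1 week was tested directly and no member passed (3 were at an unadjusted p under 0.05, none passed in DESeq2 or with the block, and 0% of all genes passed). It was positive for 8 of 8 members with a median of 1.71 on the log2 scale. Time alone called no member in HM-Wnt (2 at an unadjusted p under 0.05, none in DESeq2, 0% of genes) and none in MM (0 at an unadjusted p under 0.05, none in DESeq2, 0.0154% of genes). Between 1 and 2 weeks all 8 log2 fold changes were negative in HM-Wnt and 6 of 8 were positive in MM.

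Set against the hepatocyte marker sum of each library, the split between media at 2 weeks kept its order for Tdo2, Kmo and Kynu but not for Hgd. Per 10000 CPM of summed hepatocyte markers, Tdo2 stood at 1.24, 2.50 and 0.760 CPM in HM-Wnt and 17.1, 19.8 and 8.47 in MM. Kmo stood at 2.54, 2.74 and 1.89 against 19.2, 22.7 and 16.3, and Kynu at 0.257, 0.466 and 0.428 against 2.58, 3.60 and 1.62. Per marker CPM, too, the libraries of the media did not overlap for these 3 genes, and the share of all genes apart on this scale is not given here. Hgd stood at 25.2, 28.6 and 14.5 CPM in HM-Wnt and 28.5, 43.3 and 40.2 in MM, and its libraries overlapped. Immune marker sums were 6.27 and 27.8 CPM in MM replicates 1 and 2 at 2 weeks and 780.4 CPM in replicate 3, the library with the lowest level of all 8 members, and their part in the result was not tested.

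**Figure D3:**
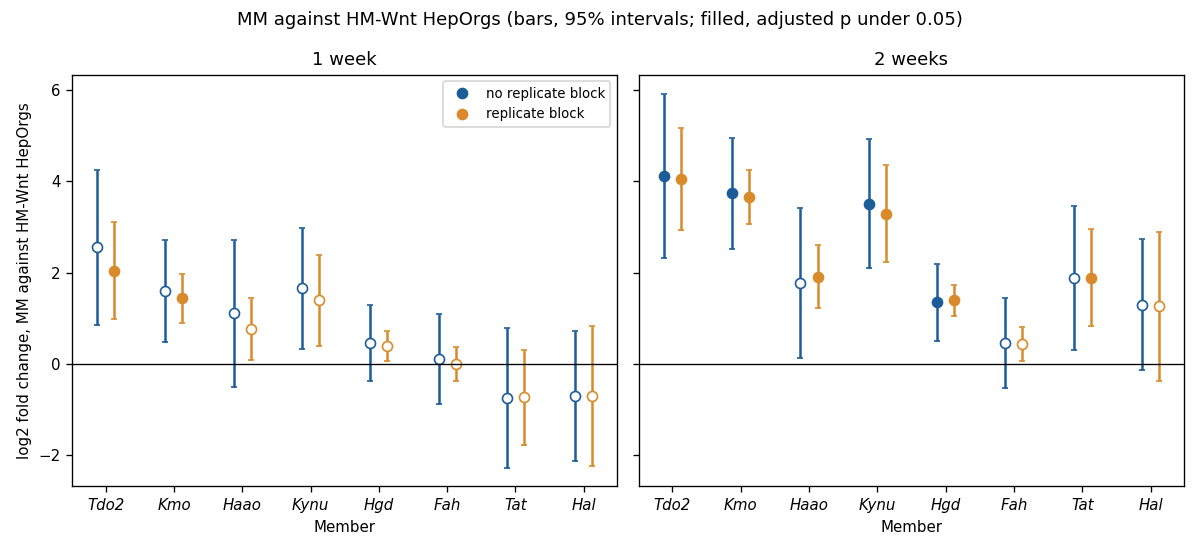
Log2 fold change of the 8 counted members in MM against HM-Wnt HepOrgs at 1 and 2 weeks, without and with the replicate number as a block. Bars are 95% intervals and filled points have an adjusted p under 0.05. At 2 weeks Tdo2, Kmo and Kynu lie between 3.29 and 4.12 in both fits, and Fah, at 0.45 without the block, does not pass in either.

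The third comparison turned to assembloids, in which HepOrg-derived hepatocytes sit with cholangiocytes and portal mesenchyme in MM. With all libraries, no member passed between fibrosis-like and homeostasis assembloids at either time, and homeostasis replicate 2 at 1 week held the lowest level of all 27 libraries for all 8. Tdo2 read 142, 0 and 119 CPM in homeostasis assembloids at 1 week, 152, 112 and 211 at 2.5 weeks, and in fibrosis-like assembloids 27.3, 28.5 and 16.5 at 1 week and 127, 6.74 and 115 at 2.5 weeks. Kmo read 208, 0 and 86.0 and then 142, 145 and 107 in homeostasis, and 43.2, 22.8 and 10.6 and then 131, 11.9 and 130.2 in fibrosis-like assembloids. The single 0 in each belonged to homeostasis replicate 2 at 1 week, and the lowest value of the late fibrosis-like group was replicate 2.

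Kynu and Haao had the same layout. Kynu was at 34.8, 0 and 22.2 CPM in homeostasis and 6.03, 4.06 and 1.63 in fibrosis-like assembloids at 1 week. It was at 27.4, 30.6 and 31.9 against 23.9, 3.66 and 23.9 at 2.5 weeks. Haao was at 229, 0 and 116 CPM against 24.3, 28.6 and 13.4 at 1 week, and at 143, 96.2 and 219 against 105, 12.2 and 112 at 2.5 weeks. At 1 week 2 homeostasis libraries lay above all fibrosis-like libraries and replicate 2 lay below them, so the groups overlapped. At 2.5 weeks the Kynu libraries of the 2 groups did not overlap and those of Haao did, in a comparison in which 0% of genes passed and 15.3% had every homeostasis library above every fibrosis-like library.

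Among the tyrosine enzymes, Hgd stood at 252, 1.66 and 95.2 CPM in homeostasis and 50.7, 48.8 and 14.5 in fibrosis-like assembloids at 1 week, and at 181, 179 and 221 against 141, 18.9 and 136 at 2.5 weeks. Fah stood at 214, 0.504 and 106 against 80.0, 106 and 14.7, and at 165, 127 and 121 against 156, 43.6 and 152. Tat stood at 108, 0 and 117 against 44.5, 22.4 and 4.75, and at 86.6, 92.7 and 16.3 against 80.6, 5.95 and 56.1. Of these 3, only Hgd at 2.5 weeks had its lowest homeostasis library above the highest fibrosis-like library. Hal stayed low everywhere, at 2.34, 0 and 2.46 against 2.50, 1.25 and 0.698 CPM at 1 week and 1.62, 0.965 and 0.778 against 4.09, 0.638 and 3.60 CPM at 2.5 weeks, with no order between the groups.

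In homeostasis replicate 2 at 1 week 6 of the 8 members were at 0 counts, which allows a level of up to 0.0560 CPM each (3 counts, counting error only). This bound leaves out RNA lost before sequencing, and 8465 genes had counts in that library. With it, no member passed between fibrosis-like and homeostasis assembloids at 1 week (edgeR, 0 at an unadjusted p under 0.05, none in DESeq2), nor did any of the 14253 genes tested (0%), and Haao had a log2 fold change of -2.44 (95% interval -6.21 to 1.33, adjusted p = 0.56) and Kynu of -2.34 (-5.84 to 1.16, adjusted p = 0.55). On the scales log2(TPM + 0.1) and log2(TPM + 1) the direction of Haao turned, to 1.13 and 0.0871. Without it, Haao at -3.02 (SE 0.77, adjusted p = 0.047) and Kynu at -2.92 (SE 0.71, adjusted p = 0.046) were lower in fibrosis-like assembloids, against 4.87% of genes. Per 10000 CPM of summed hepatocyte markers, however, the groups overlapped without that library too. Haao stood at 22.7 and 28.3 CPM in homeostasis and 11.6, 11.6 and 41.5 in fibrosis-like assembloids, and Kynu stood at 3.45 and 5.41 against 2.89, 1.64 and 5.04. At 2.5 weeks no member passed (0 at an unadjusted p under 0.05, none in DESeq2, 0% of genes), with Haao at -1.03 (-4.64 to 2.58) and Kynu at -0.83 (-4.20 to 2.53). None passed at 2.5 weeks without the outlying 1-week library either.

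The same held over time and for the difference of the mesenchyme effect between times: no member passed in homeostasis assembloids (0%), in fibrosis-like assembloids (0%) or in the difference (0%), none was at an unadjusted p under 0.05 and DESeq2 called none. At matched time and medium, no member passed between homeostasis assembloids and MM HepOrgs at 1 week (0 at an unadjusted p under 0.05, none in DESeq2, 0% of genes). Without homeostasis replicate 2 at 1 week, none of the comparisons of this paragraph up to here called a member either. For fibrosis-like assembloids against MM HepOrgs at 1 week no member passed either (1 at an unadjusted p under 0.05, none in DESeq2, 0.751% of genes), with Hgd at -2.33 (SE 1.06, adjusted p = 0.23) and Haao at -2.18 (SE 1.49, adjusted p = 0.45). When the outlying library, which is in neither group but enters the estimate of the spread, was left out, Hgd (-2.35, SE 0.66, adjusted p = 0.016) and Haao (-2.20, SE 0.79, adjusted p = 0.044) passed, against 16.5% of genes in the lower direction.

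Against fresh hepatocytes, Hal alone passed in late assembloids, with log2 fold changes of -8.76 (SE 1.52, adjusted p = 0.0070) in homeostasis and -7.51 (SE 1.44, adjusted p = 0.0072) in fibrosis-like assembloids at 2.5 weeks, while 1.78% and 3.90% of genes passed in the lower direction. Both comparisons use the same 3 fresh libraries. The other 7 members were negative in both, from -5.07 for Tat to -1.88 for Hgd in homeostasis and from -5.55 for Tat to -2.50 for Kmo in fibrosis-like assembloids, and every library was below the fresh range. Without the outlying 1-week library 6 members (all but Kmo and Hgd) were lower in homeostasis, against 12.4% of genes, and 8 were lower in fibrosis-like assembloids, against 18.3%. As a share of the fresh mean, late homeostasis assembloids held 8.16% for Tdo2, 25.8% for Kmo, 17.3% for Haao, 21.6% for Kynu, 27% for Hgd, 11.9% for Fah, 2.97% for Tat and 0.222% for Hal.

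Hepatocyte markers moved with the members across assembloid libraries, and the cholangiocyte and mesenchyme sums are given beside them. Hepatocyte marker sums were 20873, 24781 and 3234 CPM in fibrosis-like assembloids at 1 week and 51984, 12018 and 54789.7 at 2.5 weeks, and 64340.0 to 67374 in late homeostasis. Cholangiocyte sums were 1154, 357 and 4584 CPM and then 721, 4261 and 884 in the fibrosis-like groups, and mesenchyme sums 2332, 5358 and 660.3 and then 1122, 4026 and 4458. The library with the lowest hepatocyte sum in each fibrosis-like group (replicate 3 at 1 week, replicate 2 at 2.5 weeks) was the lowest for 8 of 8 members. Over the 12 assembloid libraries, the Pearson correlation of log2 member level with log2 hepatocyte marker sum ranged from 0.68 for Hal to 0.96 for Kynu and Hgd, and without homeostasis replicate 2 at 1 week from 0.47 for Hal to 0.97 for Fah, as a description of libraries normalised together.

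**Figure D4:**
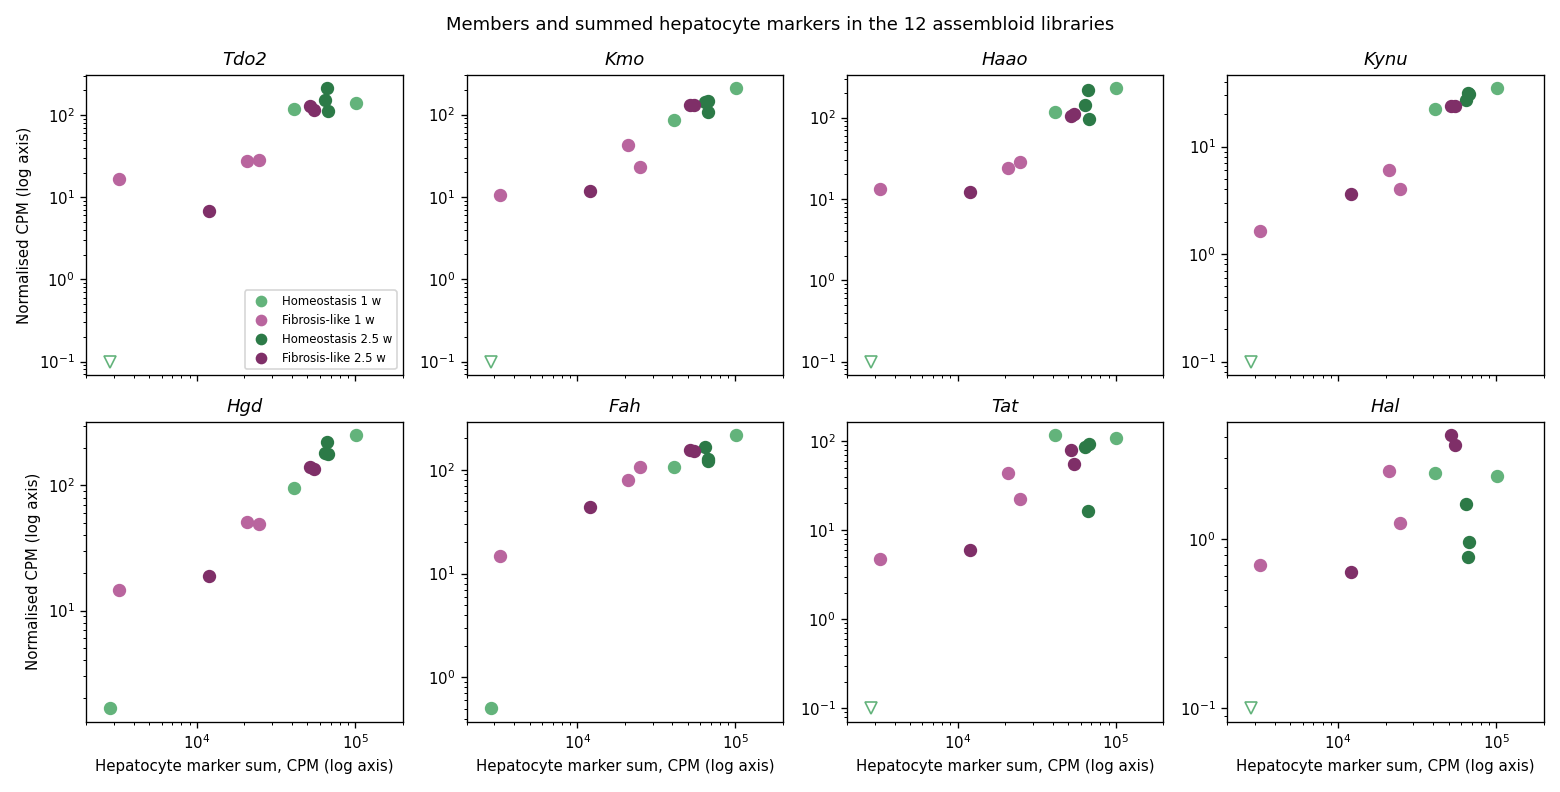
Normalised CPM of each counted member against the summed CPM of 10 hepatocyte markers in the 12 assembloid libraries (both axes log), coloured by group, with open triangles for 0 counts. Homeostasis replicate 2 at 1 week, with the lowest hepatocyte marker sum (2834 CPM), holds the lowest level of each member.

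The order of the 9 conditions by mean level was led by fresh hepatocytes for all 8 counted members. Late homeostasis assembloids came next for Tdo2, Kmo, Haao, Kynu and Hgd. Without homeostasis replicate 2, the other 1-week homeostasis libraries averaged 28.9% of the fresh mean for Kmo and 19.5% for Haao, above the late group. Below the fresh hepatocytes, neighbours in the order overlapped in their libraries except at 1 step each for Tdo2 (fibrosis-like assembloids at 1 week above HM-Wnt HepOrgs at 1 week), Kmo and Kynu (both HM-Wnt at 1 week above HM-Wnt at 2 weeks). Between the HM-Wnt times 0% of genes passed, and the share of all genes apart at these steps is not given here.

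Other genes of the same routes, from 7 lists with 51 genes, put the members in context. In HM-Wnt HepOrgs at 2 weeks against fresh hepatocytes, 6 of 8 tested tryptophan-kynurenine genes were lower and none higher (median -4.30, beside 0.03 over all genes). Beside this list and the lists that follow, 25.7% of all genes tested were lower in HM-Wnt at 2 weeks and 20.0% in MM. Ido2, a second tryptophan dioxygenase, was at -7.12, Aadat, a kynurenine aminotransferase, at -7.70, Acmsd, which diverts the quinolinate precursor from NAD, at -3.53 and Gcdh, of the glutarate branch, at -3.09. In MM at 2 weeks 6 of 8 were lower as well (median -3.38), with Acmsd at -3.97, Dhtkd1, which acts on 2-oxoadipate, at -4.77, Ido2 at -4.32 and Aadat at -5.48. Ido1 and Afmid had too few counts for the test.

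Of the genes of NAD synthesis and nicotinamide use, 5 of 7 were lower in HM-Wnt (median -1.59) and 3 of 7 in MM (median -1.07), with Nadsyn1, the last step of NAD synthesis from nicotinate, at -1.70 and -1.29 and Aox1, an aldehyde oxidase that also oxidises N-methylnicotinamide, at -1.98 and -1.35. Naprt, which starts NAD synthesis from nicotinate, was lower in HM-Wnt at -1.77 (adjusted p = 9.7e-05) and stood at -0.47 in MM without passing (adjusted p = 0.16).

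Of 9 further genes of tyrosine and biopterin metabolism 6 were lower in HM-Wnt (median -0.89) and 4 in MM (median -0.67). Qdpr, which regenerates tetrahydrobiopterin, was at -2.77 and -2.30, Gstz1, the isomerase between Hgd and Fah, at -3.14 and -2.11, and Got2, an aspartate aminotransferase, at -1.65 and -1.13. Pcbd1, which also serves biopterin recycling, was at -0.89 and -0.83. In the histidine list 5 of 5 genes were lower in HM-Wnt (median -4.73), whereas in MM 4 were lower (median -2.39) and 1 was higher. That gene, Hnmt, the histamine methyltransferase, was at 0.57 and is named after its value was seen. Amdhd1 and Uroc1, the steps after Hal, were at -6.38 and -6.14 in HM-Wnt and -3.88 and -5.52 in MM.

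Transporters were split. Slc7a5 and Slc3a2, the 2 chains of the LAT1 transporter of large neutral amino acids, were higher than in fresh hepatocytes, at 4.11 and 2.50 in HM-Wnt and 2.70 and 2.55 in MM, while Slc16a10, an aromatic amino acid exporter, was lower at -1.25 and -2.28 and Slc38a3, a glutamine and histidine transporter, at -2.43 and -2.55. The list's median was -1.25 in HM-Wnt and -2.28 in MM, and Slc6a19 had too few counts for the test. Of 6 genes of the glucocorticoid receptor and its response 3 were lower in each medium (medians -1.29 and -1.26), with Tsc22d3 at -1.69 and -1.39 and Sgk1 at -1.55 and -2.36. Among 8 hepatocyte transcription factors, 4 were lower and 1 higher in HM-Wnt and 5 lower in MM (medians -0.81 and -0.82). Cebpa, a C/EBP factor of mature hepatocytes, was at -3.02 and -2.34, Hnf4a at -1.01 and -0.73, and the related factor Cebpb at 2.52 in HM-Wnt.

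**Figure D5:**
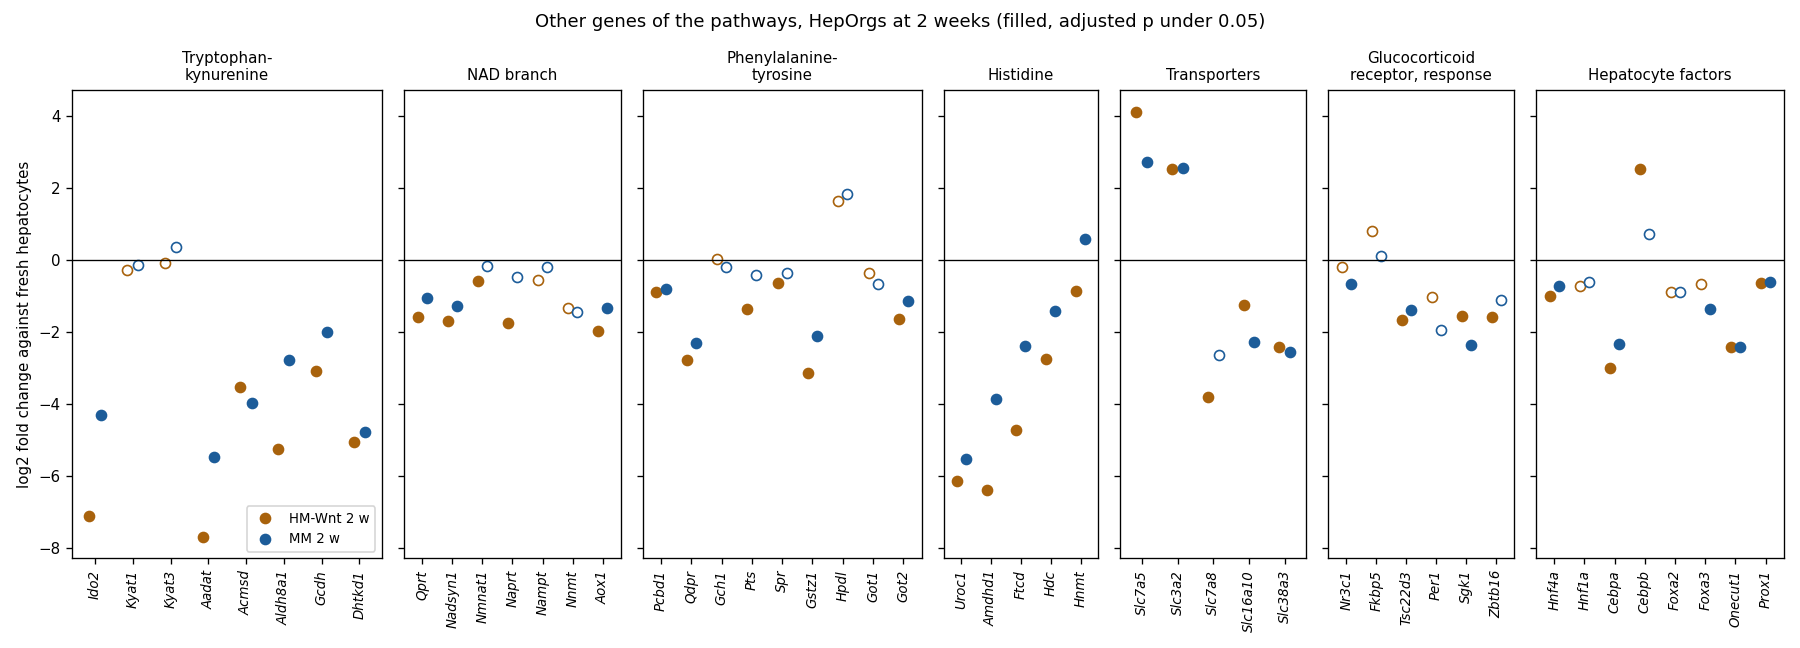
Log2 fold change against fresh hepatocytes of the other genes of 7 lists in HM-Wnt and MM HepOrgs at 2 weeks, by list, with filled points for an adjusted p under 0.05. Most points of the tryptophan, tyrosine and histidine lists lie below 0, and Slc7a5 and Slc3a2 lie above it.

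Between the media at 2 weeks, MM HepOrgs had higher Ido2 (2.82, adjusted p = 0.018) and Gcdh (1.09, adjusted p = 0.036), which were 2 of 8 genes of the tryptophan list (median 0.78, beside -0.02 over all genes). Of the 12989 genes tested, 6.84% were higher and 599 genes lower in MM, and 11.0% were higher with the replicate block. In the histidine list 3 of 5 were higher (median 1.44), namely Amdhd1 (2.52, adjusted p = 0.0014), Ftcd (2.36, adjusted p = 0.014), whose enzyme passes the last carbon to folate, and Hnmt (1.44, adjusted p = 0.0011). Naprt was the 1 higher gene of 7 in the NAD list (1.31, adjusted p = 0.013), Cebpa the 1 of 8 hepatocyte factors (0.69, adjusted p = 0.035), and none of 9 tyrosine genes or 6 glucocorticoid genes passed (medians 0.42, 0.03, 0.27 and -0.55 for these 4 lists). Slc7a5 (-1.40, adjusted p = 0.0060) and Slc16a10 (-1.02, adjusted p = 0.0044) were the 2 lower transporters of 5 in MM (median -0.11). With the replicate block, 4 of 8 tryptophan genes (Aldh8a1 and Aadat added), 3 of 9 tyrosine genes (Gstz1, Pts and Qdpr) and 4 of 5 histidine genes (Hdc added) were higher. At 1 week Aox1 (1.07, adjusted p = 0.034) and Hnmt (0.92, adjusted p = 0.024) were higher and Slc16a10 (-0.92, adjusted p = 0.022) lower, with no other gene of the 7 lists past the threshold. With the block, 2 genes of the NAD list were higher and 1 lower at 1 week, 2 of the histidine list were higher and 2 of the glucocorticoid list lower. Over all genes at 1 week, 2.98% passed in either direction, and 5.62% were higher with the block.

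In assembloids, no gene of the 7 lists passed between fibrosis-like and homeostasis groups at either time, between times, or against MM HepOrgs at 1 week. Without homeostasis replicate 2 at 1 week, fibrosis-like assembloids of that time had 2 of 9 tryptophan genes, 2 of 7 NAD genes, 3 of 9 tyrosine genes and 1 of 8 hepatocyte factors lower than homeostasis assembloids, and none of the 7 lists had a higher gene, beside 4.87% of all genes lower. Against MM HepOrgs, where 16.5% of all genes were lower, the fits without that library had 7 of 9 tyrosine genes, 3 of 9 tryptophan genes, 3 of 7 NAD genes, 1 of 5 histidine genes, 4 of 6 transporters and 5 of 8 hepatocyte factors lower, and 3 of 6 glucocorticoid genes lower and 1 higher.

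The genes whose log2 levels followed each member most closely over the 27 libraries were ranked by Pearson correlation among 7797 genes with a mean log2 CPM of at least 3. Pbld2 was nearest to Tdo2 (0.98) and to Kynu (0.98), Timd2 to Kmo (0.98), Tmem86b to Haao (0.98), C8g, a complement chain, to Hgd (0.99), F13b, a coagulation factor subunit, to Fah (0.98), Aass, the first enzyme of lysine breakdown, to Tat (0.96), and Gpat4 to Hal (0.92). Within the members, Tdo2 and Kynu were most alike (0.98), and Hgd and Hal least (0.60). The 27 libraries hold groups that lie far apart, which raises such correlations, and they are given as a description.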

How the data were processed

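RNA from fresh hepatocytes, HepOrgs or assembloids was made into Smart-seq2 libraries and sequenced in pairs. The authors aligned reads with STAR to GRCm39 and deposited the count per gene and library from featureCounts, with a TPM score computed on a length within 5% of the whole gene span for 80.82% of genes. How counting treated strand and overlapping genes is not given in the sources used here. The table holds 37 libraries; the 27 labelled in 9 groups were used and 10 were not used here. No 2 libraries held identical values.

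Counts were tested with edgeR 4.0.16 (quasi-likelihood test, TMM scaling, filterByExpr at 10 counts per library and 15 in all, prior count of 2) in R 4.3.3, with Benjamini-Hochberg adjustment over all genes tested and a threshold of 0.05. Each fit held only the groups that its family of comparisons concerns. Alternatives were RLE size factors, DESeq2 1.42.0, other filters, limma 3.58.1 on log2(TPM + 1) and log2(TPM + 0.1), other sets of libraries, a block for the replicate number, and each library left out in turn; fits without homeostasis replicate 2 at 1 week where it is in neither group were added after seeing the data. Fits were tested on simulated data with 200 changed genes. Those data had the same relative spread for every gene and no outlying library. They therefore say nothing on fits that hold such a library. Replicate numbers were taken to pair HepOrg libraries because all 18 same-number correlations of deviations exceeded 0.1 (0.127 to 0.503).

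The members and lists were chosen with earlier results of these data known. All members are named, from each other list (1 listed gene is not reported here) up to 4 genes with the lowest adjusted p, and for each member the nearest of its 3 most correlated genes. Positions are from GENCODE on GRCm39, and promoters from RefSeq on GRCm38.p6.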

Additional observations from a re-analysis of the deposited data

How the results depend on the processing

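All 8 counted members remained lower than in fresh hepatocytes in the 4 HepOrg comparisons with RLE size factors, DESeq2, the replicate block and each library left out, and a filter of at least 10 counts in every library removed Hal. In 1 fit of all 27 libraries the count fell to 6 for HM-Wnt at 1 week, 4 for MM at 1 week and 2 for MM at 2 weeks, and 0 members passed for MM against HM-Wnt at 2 weeks instead of 4. For MM against HM-Wnt at 1 week, where no member passed, DESeq2 called 3 and the replicate block 2, and leaving out 1 library gave 0 to 3. At 2 weeks leaving out 1 library gave 3 to 4. For fibrosis-like against homeostasis assembloids at 1 week it gave 0 to 2, the 2 coming without homeostasis replicate 2. For fibrosis-like assembloids against MM HepOrgs at 1 week, a fit of the compared groups alone called 1 member and a fit without that library 2.

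For homeostasis assembloids at 2.5 weeks against fresh hepatocytes (1 member) DESeq2 called 3, the stricter filter 0, all 27 libraries 2, the compared groups alone 8 and the fit without homeostasis replicate 2 at 1 week 6, and leaving out 1 library gave 0 to 1, the call of Hal ending without homeostasis replicate 2 at 2.5 weeks (adjusted p = 0.053). For fibrosis-like assembloids at 2.5 weeks (1 member) the same settings gave 5, 0, 5, 7 and 8, and log2(TPM + 1) gave 4. In the main fits 1.78% and 3.90% of all genes were lower, and without homeostasis replicate 2 at 1 week 12.4% and 18.3%. For most other settings of this section the share of all genes is not given here, so their counts are not set against it. The log2 fold change of Haao between fibrosis-like and homeostasis assembloids at 1 week was 1.13 on log2(TPM + 0.1) and 0.0871 on log2(TPM + 1) instead of -2.44, and on log2(TPM + 0.1) those of Fah (1.70), Tat (1.44), Tdo2 (1.44), Kmo (0.95) and Hgd (0.55) were positive as well, none past the threshold. The cause was not tested.

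The replicate block changed no count of members by more than 1.5 times other than in MM against HM-Wnt HepOrgs, where it gave 2 at 1 week and 6 in place of 4 at 2 weeks. With fresh hepatocytes and HepOrgs 19 of 30 same-number correlations exceeded 0.1, against 7 of 60 between different numbers, and among assembloids 6 of 18 against 5 of 36. Not every same-number pair exceeded 0.1 there, so those libraries were not taken as paired. No fit of the compared groups alone was made for the 2 differences of effects between times.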
